A study of Mus musculus with 4 samples.

Results

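The 10 genes studied here encode potassium channel subunits that shape the heartbeat, followed in mouse hearts without the microRNA miR-1: Kcnj2, Kcnj12, Kcnj3, Kcnj5, Kcnd2, Kcnd3, Kcnip2, Kcnq1, Kcne1 and Kcnh2. They were chosen by name from the 22552 gene rows that the P2.5 and E15.5 tables each hold, and all 10 were present at both stages under the flag of a completed test. The knockout hearts were double knockouts (dKO) that lack miR-1-1 together with its paralog miR-1-2, and their controls were littermates labelled dHET, at postnatal day 2.5 (P2.5) and embryonic day 15.5 (E15.5), in mice of the strain labelled Sv129. There was 1 library of whole-heart, poly-A selected RNA for each of the 4 combinations of stage and genotype, read with 100-base reads from one end at P2.5 and from both ends at E15.5. The E15.5 table heads its control column WT, whereas the sample is labelled dHET, so the genotype of that control is uncertain. No tissue-specific allele is named in the labels, the number of hearts per library is not given in the sources used here, and no value below has a replicate error.

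Potassium channels carry the outward current that ends each action potential and holds the heart muscle cell at its resting voltage. Inward rectifiers set the resting potential, the transient outward channels give the first, early repolarization that is large in mouse heart muscle, and the delayed rectifiers end the plateau. Heart muscle holds much miR-1, which represses transcripts that pair with its seed region; Kcnj2 has been described as one of its targets, and in mice the transcription factor Irx5 has been described as a repressor of Kcnd2.

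Of the 10 members, 3 hold a match to the miR-1 seed in their longest annotated 3' UTR, and their sites are shown because a seed match is the feature through which miR-1 recognises a transcript. Of the other potassium channel genes described further on, Kcnmb1 is shown as well, since it had the largest change among them. Its site was thus chosen by its value, and others of those genes hold a match too. Each window has 30 bases, read 5' to 3' on the transcript strand from GENCODE M1 transcripts on NCBIM37, the assembly of mm9, and the capitals mark the word that matches the 5' end of miR-1 (ACATTCC or CATTCCA, or ACATTCCA where both overlap).
Kcnj2 (chr11:110935526-110935555): tctctcttagcACATTCCAaagttggttcc
Kcnd3 (chr3:105476596-105476625): ttgataaccagACATTCCAatgttttcctt
Kcnd2 (chr6:21678923-21678952): aaagttttgttCATTCCAagccaccactgt
Kcnmb1 (chr11:33873167-33873196): tatgttgtcagACATTCCAgatcaaggcag

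All 4 windows lie on the plus strand. The Kcnj2 match begins at base 1153 of a 3' UTR of 3751 bases, the Kcnd2 match at base 1592 of 2463, the Kcnd3 match at base 4480 of 4793 and the Kcnmb1 match at base 2814 of 3277. The word ACATTCCA is found in 3.51% of the 18777 3' UTRs searched and in 8.36% of those with at least 2000 bases, and CATTCCA is found in 11.0% of all and 26.3% of the long ones. The other 7 members hold neither word in the longest annotated 3' UTR. A match describes these letters only, and whether any of the sites is used was not measured.

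The values are the authors' FPKM (fragments scaled to transcript length and to 1000000 fragments in all), so levels of different genes can be compared within a library. Changes were computed as log2((FPKM dKO + 1)/(FPKM dHET + 1)) and called at a fold of at least 1.5 where at least 1 FPKM was reached in one of the libraries of the stage. This scale understates changes of low genes. Where the change in the authors' deposited table is given instead, it is a plain log2 ratio of dKO over control, with the E15.5 sign turned, and its standard error is the one implied by the authors' fold change and test statistic. That error covers the authors' model of 2 libraries and not differences between animals.

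At P2.5, 2 members passed 1.5-fold on the lower side in dKO, Kcnj3 and Kcnd2, and 0 of the 9 counted members were higher. Both lay below 1 FPKM in dKO (0.811 and 0.546 FPKM) and were counted through the dHET library alone. Kcnd3 was not counted at P2.5. Among all 11703 genes counted, 1.33% were lower and 3.4% were higher at that fold. At E15.5, Kcnd2 was again lower and again counted through dHET alone (0.622 FPKM in dKO). There, 0 of the 10 members were higher, and the shares over all 11709 genes were 0.726% lower and 0.487% higher. The remaining members lay within 1.5-fold at both stages. The median change of the counted members was -0.059 in the newborn hearts and 0.042 in the fetal hearts, against 0.066 and -0.0078 over all counted genes. Rescaling each library to a sum of 1000000 moved the median over all P2.5 genes to -0.091, so P2.5 changes are read relative to that shift. The split of all P2.5 genes was 398 higher and 156 lower as deposited, 273 and 235 after centring on the median change, and 283 and 593 after rescaling. Rescaling raised the values while the pseudocount stayed at 1, so the pseudocount weighed less in the rescaled counts.

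**Figure D1:**
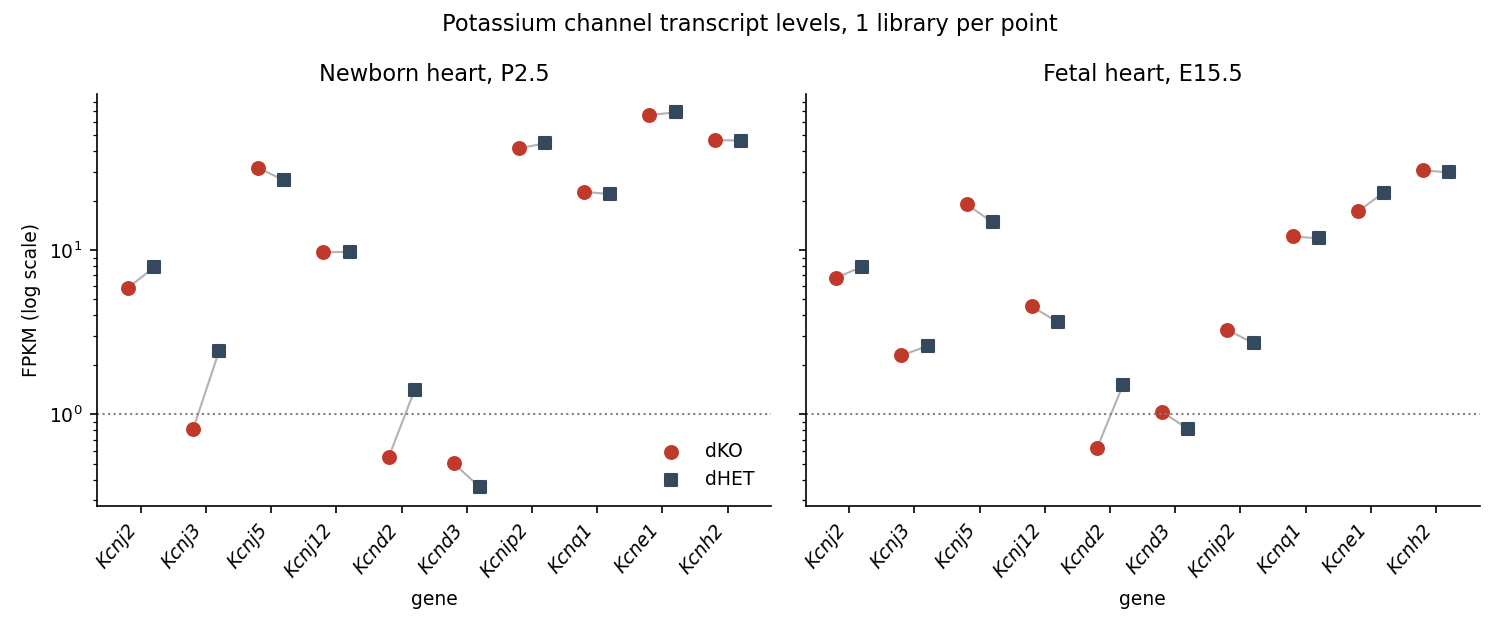
FPKM on a log axis for each member in the dKO library (red circles) and the dHET library (dark squares) at P2.5 (left) and E15.5 (right), with a dotted line at an FPKM of 1. Each point is 1 library; the wide gaps are those of Kcnd2 at both stages and of Kcnj3 at P2.5.

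Kcnd2 (chromosome 6, 21166108 to 21679805, mm9) encodes a pore subunit of the fast transient outward channel. At P2.5 it had 0.546 FPKM in the dKO library, against 1.41 FPKM in the dHET library. In the fetal hearts Kcnd2 had 0.622 FPKM in the dKO library, against 1.51 FPKM in the dHET library. Both dKO libraries were below both dHET libraries, although the 2 tables were scaled separately. The changes were -0.64 (P2.5) and -0.63 (E15.5). The log2 ratios in the authors' deposited table were -1.37 (implied standard error 0.47) and -1.28 (0.33), and the q-values were 0.294 for P2.5 and 0.0138 for E15.5. That table calls Kcnd2 significant at E15.5, the sole member it calls at either stage, while 0.406% of the 13537 genes it tested at P2.5 and 0.936% of the 14417 at E15.5 were called. Of the 11270 genes counted at both stages, 13 were at least 1.5-fold lower at both, or 0.115%, and Kcnd2 was one of them. It passed the count rule at each stage through the higher dHET value alone, so this share does not measure how rare its change is.

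Kcnd2 is a low gene, which limits how firmly its change can be read. Between FPKM 1 and 3, a band chosen after the values were seen, 1.96% of 2036 genes at P2.5 and 1.41% of 1909 genes at E15.5 were at least 1.5-fold lower. With GC content and transcript length regressed out, the P2.5 change was -0.52 and no longer reached 1.5-fold, while the E15.5 change was -0.60 and did.

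The P2.5 libraries also differed in sex. Xist, the X-inactivation transcript, had 50.7 FPKM in the dKO library and 0.101 FPKM in the dHET library, and the Y-linked Ddx3y was listed at 0 in dKO and at 11.7 FPKM in dHET. Sex and genotype cannot be told apart in any P2.5 comparison. Both E15.5 libraries expressed Ddx3y, at 14.8 FPKM in dKO and 15.3 FPKM in dHET. The part of sex in the P2.5 Kcnd2 value was not tested.

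Kcnd3 (chromosome 3, 105251107 to 105476920) encodes the related pore subunit of the same current and carries an 8-base miR-1 match. It had 0.501 FPKM in the dKO library and 0.359 FPKM in the dHET library at P2.5, under the level at which genes were counted. Its E15.5 level was 1.03 FPKM in dKO and 0.812 FPKM in dHET, a change of 0.16. The dKO library was the higher one at both stages, but the authors' log2 ratios of 0.48 and 0.34 were smaller than their implied standard errors of 0.86 and 0.43. Exons of Kcnd3 share 165 bases with the antisense gene 1700095B22Rik, which had at most 0.0318 FPKM in any library.

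The balance between these partners differed between the genotypes at both stages. At P2.5 Kcnd3 made up 47.9% of the summed Kcnd2 and Kcnd3 FPKM in the dKO library, against 20.3% in the dHET library. At E15.5 it made up 62.4% in the dKO library, against 34.9% in the dHET library. In the E15.5 dKO library Kcnd3 exceeded Kcnd2, in the P2.5 dKO library the 2 were nearly level, and in both dHET libraries Kcnd2 was the higher. The ratio of Kcnd3 to Kcnd2 was higher in dKO by 1.85 on the log2 scale at P2.5 and by 1.63 at E15.5. Standard errors of 0.98 and 0.54 follow from the authors' values if the errors of the genes are independent, so the P2.5 difference is less than 2 such errors. The summed level was 1.05 FPKM in dKO and 1.77 FPKM in dHET at P2.5, and 1.65 FPKM in dKO and 2.33 FPKM in dHET at E15.5.

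**Figure D2:**
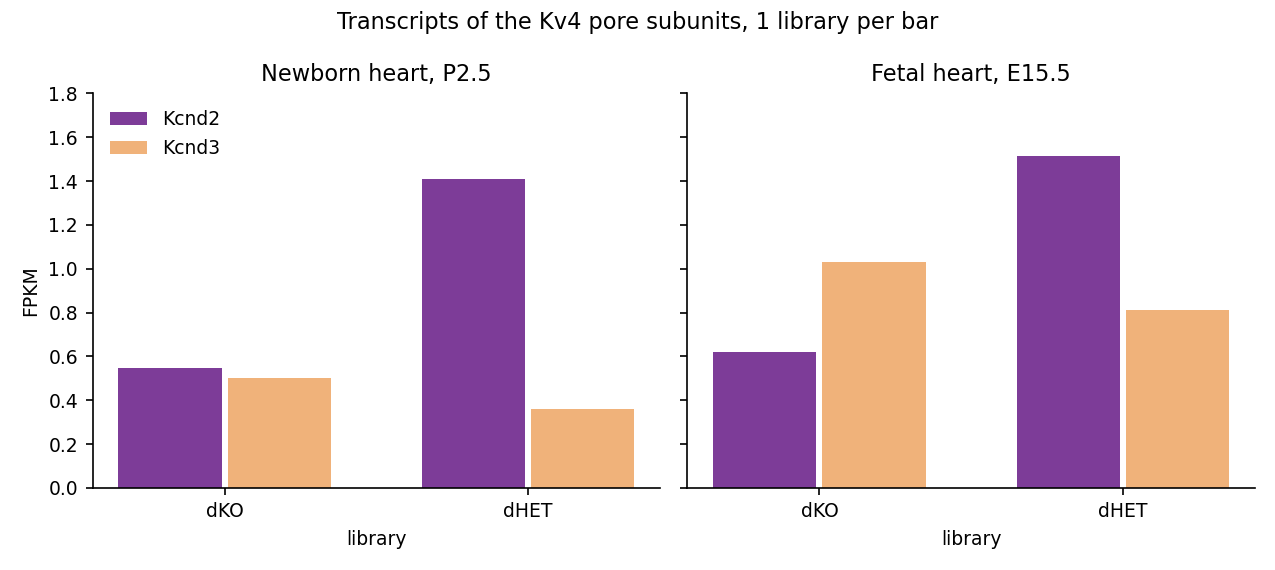
FPKM of Kcnd2 (purple) and Kcnd3 (orange), which encode pore subunits of the Kv4 family, in the dKO and dHET libraries at P2.5 (left) and E15.5 (right), with 1 library per bar. Kcnd2 was 0.546 and 0.622 in the dKO libraries and 1.41 and 1.51 in the dHET libraries, while Kcnd3 was slightly higher in dKO.

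Kcnip2 (chromosome 19, 45868159 to 45890293) encodes the calcium-binding auxiliary subunit that carries these pores to the cell surface. It had 41.6 FPKM in dKO and 44.6 FPKM in dHET at P2.5. At E15.5 it had 3.26 FPKM in dKO and 2.71 FPKM in dHET. The genotypes differed little at either stage, with changes of -0.098 and 0.20 and authors' standard errors of 0.35 and 0.48. Relative to the summed Kcnd2 and Kcnd3 level, Kcnip2 was 39.7 times as high in dKO and 25.2 times in dHET at P2.5, and 1.97 times in dKO and 1.17 times in dHET at E15.5.

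Kcnip2 differed more between the stages than any other member. Its P2.5 level was 12.8 times its E15.5 level in the dKO hearts and 16.5 times in the dHET hearts. The P2.5 and E15.5 tables were made from different read types and scaled separately, so such ratios across tables are descriptions with no test; over 11270 genes the median ratio of FPKM + 1 was 0.991 in dKO and 0.948 in dHET. Among members higher at P2.5, Kcne1 followed with 3.85 times in dKO and 3.08 times in dHET, and Kcnj12 with 2.13 and 2.69 times. Kcnd3 was lower at P2.5 in both genotypes, at 0.486 times its E15.5 level in dKO and 0.443 times in dHET. Kcnj3 was at 0.356 times its E15.5 level in dKO, against 0.934 times in dHET.

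Kcnj3 and Kcnj5 encode the subunits of the channel that opens when acetylcholine acts on muscarinic receptors, which slows the pacemaker and shortens the action potential of the atria. Kcnj3 (chromosome 2, 55289566 to 55447936) had 0.811 FPKM in the dKO library at P2.5, against 2.43 FPKM in the dHET library, a change of -0.92. The E15.5 libraries had 2.28 FPKM in dKO and 2.60 FPKM in dHET, a change of -0.14. The P2.5 dKO library thus stood apart from the other 3, which lay between 2.28 and 2.60 FPKM. In the authors' deposited table the P2.5 log2 ratio was -1.58 (implied standard error 0.53, q-value 0.256) and the E15.5 ratio was -0.19 (0.33); whether the change differed between the stages was not tested. Its exons share 1621 bases with the antisense RNA gene Gm17595, and whether the authors counted by strand is not given in the sources used here, so the level is uncertain.

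Kcnj5 (chromosome 9, 32122367 to 32151822) was far above its partner and went the other way. At P2.5 it had 31.5 FPKM in dKO and 26.5 FPKM in dHET, a change of 0.24. At E15.5 it had 19.0 FPKM in dKO and 14.7 FPKM in dHET, a change of 0.34, the largest positive change of a member at that stage. The authors' ratio at E15.5 was 0.37 with an implied standard error of 0.16 and a q-value of 0.802. Kcnj3 made up 2.51% of the summed Kcnj3 and Kcnj5 level in dKO and 8.39% in dHET at P2.5, and 10.7% in dKO and 15.0% in dHET at E15.5.

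Since the acetylcholine-gated channel is mainly atrial, markers of atrial muscle were set beside Kcnj3. In bulk tissue, fewer cells of a type and less RNA per cell cannot be told apart. At P2.5, 5 of the 8 counted atrial markers passed 1.5-fold on the higher side in dKO and 0 on the lower, with changes from -0.18 to 2.48. Nppa (2.48) and Myl7 (1.92) led them. The summed level of the 10 listed atrial markers was 1273 FPKM in dKO and 275 FPKM in dHET, and none was at 0. Most of the dKO sum was Nppa, at 1021 FPKM in dKO and 182 FPKM in dHET. Dkk3 (0.028), Nr2f2 (0.026) and Tbx5 (-0.18) changed little. Of those too low to be counted, Bmp10 had 0.274 FPKM in dKO and 0.562 FPKM in dHET. Fgf12 had 0.184 FPKM in dKO and 0.0514 FPKM in dHET. At E15.5, 2 of 9 were higher and 0 lower, with a sum of 2388 FPKM in dKO and 1758 FPKM in dHET. Pacemaker and conduction markers summed to 69.7 FPKM in dKO and 72.8 FPKM in dHET at P2.5, with 0 of 6 counted members past 1.5-fold. Most of both sums was Cacna1g, at 45.2 FPKM in dKO and 51.6 FPKM in dHET. Of the 6, 3 changed upward and 3 downward, from -0.43 (Tbx18) to 0.44 (Hcn4), and Isl1 was at 0 in dHET. The part of the atrial, pacemaker and conduction markers in the Kcnj3 value was not tested. The muscarinic receptor gene Chrm2 changed by -0.27 at P2.5 and 0.10 at E15.5.

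Nerve and glia markers, set beside Kcnd2 because neurons express it too, were near the lower limit. Their sum was 5.27 FPKM in dKO and 5.67 FPKM in dHET at P2.5, and 3.25 FPKM in dKO and 3.90 FPKM in dHET at E15.5. Of the 10 listed, 3 were counted at P2.5 and 1 at E15.5, and 0 passed 1.5-fold; Th was at 0 in both P2.5 libraries. Their part in the Kcnd2 value was not tested. Heart muscle markers were abundant, with Tnnt2 at 5545 FPKM in dKO and 3314 FPKM in dHET at P2.5. Of the 9 heart muscle markers counted at each stage, 2 were higher and 1 lower at P2.5, and 0 passed 1.5-fold at E15.5. The tenth (Myh6 in the newborn table, Myh7 in the fetal one) stood at 0 in dKO under the authors' HIDATA flag and was not counted.

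Kcnj2 and Kcnj12 encode the pores of the classical inward rectifier, which clamps resting ventricular muscle near the potassium equilibrium. Kcnj2 (chromosome 11, 110927477 to 110938139) carries an 8-base miR-1 match and was lower in dKO at both stages. It had 5.87 FPKM in dKO and 7.84 FPKM in dHET at P2.5, a change of -0.36. Its E15.5 levels were 6.77 FPKM in dKO and 7.93 FPKM in dHET, a change of -0.20. Both dKO libraries lay below both dHET libraries, but neither stage reached 1.5-fold, and the authors' log2 ratios of -0.42 and -0.23 were within 2 of their implied standard errors of 0.29 and 0.17. These are RNA levels, and protein was not measured.

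Kcnj12 (chromosome 11, 60879305 to 60884633) had 9.67 FPKM in dKO and 9.76 FPKM in dHET at P2.5. The fetal libraries had 4.53 FPKM in dKO and 3.63 FPKM in dHET, a change of 0.26. Between its 2 stages the order of the pair turned: Kcnj2 was the higher in both E15.5 libraries, at 1.49 times Kcnj12 in dKO and 2.18 times in dHET, and the lower in both P2.5 libraries, at 0.607 times in dKO and 0.803 times in dHET. The ratio was lower in dKO at each stage, by -0.40 on the log2 scale at P2.5 (standard error 0.42) and -0.55 at E15.5 (0.31), within 2 standard errors.

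Genes with a pattern most like that of Kcnj2 were ranked by the distance between their pairs of changes at P2.5 and E15.5, over 7650 genes that reached 5 FPKM in one of the libraries of each stage. The nearest 5 were Zfr, Atxn2, Rnf2, Zcchc11 and R3hdm1, at distances of 0.011 to 0.017. As many as 163 genes lay within a distance of 0.1, so the pattern is a common one.

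The delayed rectifier genes differed little between the genotypes. Kcnh2 (chromosome 5, 23825406 to 23857422), the pore of the rapid current, had 46.7 FPKM in dKO and 46.4 FPKM in dHET at P2.5, and 30.6 FPKM in dKO and 29.7 FPKM in dHET at E15.5. Kcnq1 (chromosome 7, 150293158 to 150612947), the pore of the slow current, had 22.6 FPKM in dKO and 21.9 FPKM in dHET at P2.5, and 12.1 FPKM in dKO and 11.8 FPKM in dHET at E15.5. Their changes lay between 0.0071 and 0.042, and those at P2.5 turned negative after centring on the median change or rescaling, at -0.16 for Kcnh2 and -0.13 for Kcnq1 in the lowest case. With authors' standard errors of 0.28 (Kcnh2) and 0.29 (Kcnq1) at P2.5, differences of about that size could not be seen. The antisense RNA Kcnq1ot1 shares its locus with Kcnq1 in the tables and had at most 0.429 FPKM.

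Kcne1 (chromosome 16, 92346245 to 92359713), the single-span subunit that slows and enlarges the Kcnq1 current, was the highest member at P2.5. It had 66.2 FPKM in dKO and 69.0 FPKM in dHET there, a change of -0.059. At E15.5 it had 17.2 FPKM in dKO and 22.4 FPKM in dHET, a change of -0.36, which did not reach 1.5-fold. The authors' ratio at E15.5 was -0.38 with an implied standard error of 0.16 and a q-value of 0.724. Kcne1 was 2.93 times Kcnq1 in dKO and 3.14 times in dHET at P2.5, and 1.42 times in dKO and 1.91 times in dHET at E15.5.

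**Figure D3:**
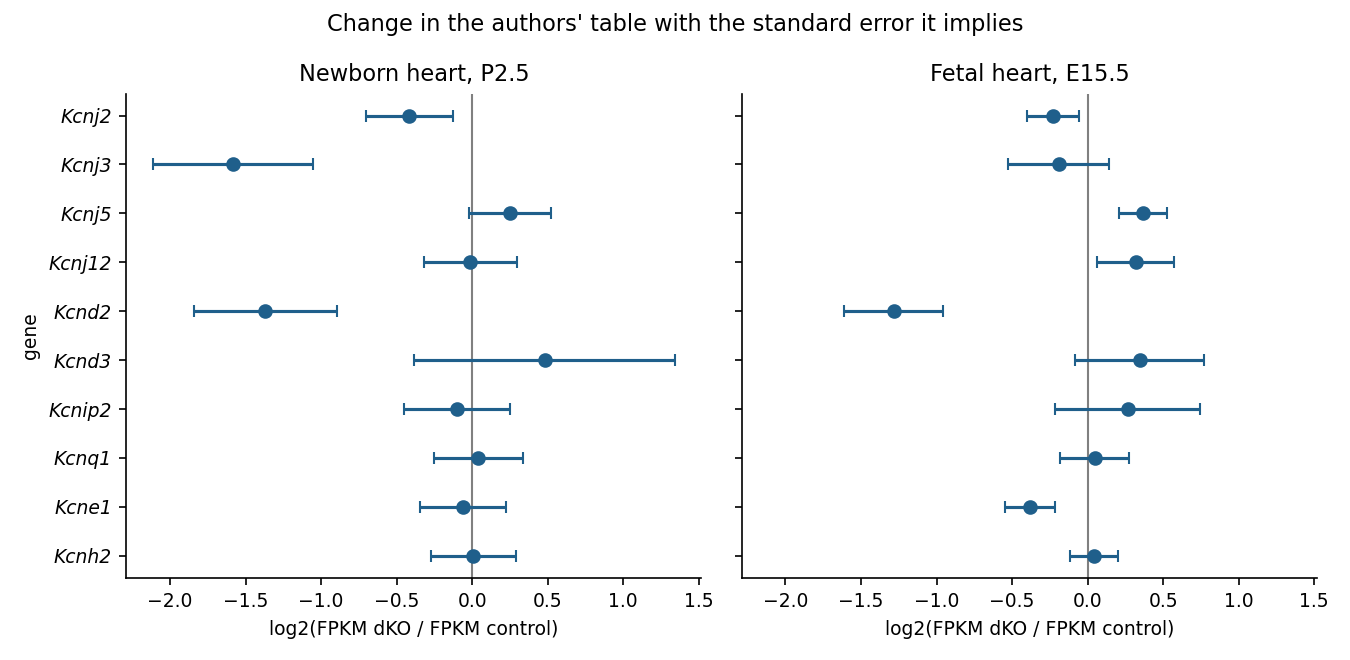
Log2 ratio of dKO over control FPKM for each member in the authors' deposited table at P2.5 (left) and E15.5 (right), with the E15.5 sign turned. Bars are 1 standard error as implied by the authors' test statistic. At P2.5, Kcnd2 (-1.37) and Kcnj3 (-1.58) lie more than 2 such errors from 0. At E15.5, Kcnd2 (-1.28), Kcne1 (-0.38) and Kcnj5 (0.37) do.

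At P2.5 the order of the levels was the same in both genotypes and ran Kcne1, Kcnh2, Kcnip2, Kcnj5, Kcnq1, Kcnj12, Kcnj2, Kcnj3, Kcnd2 and Kcnd3. At E15.5 Kcnh2 was first in both, Kcnj5 and Kcne1 exchanged the next places, and Kcnd3 and Kcnd2 exchanged the last places between dKO and dHET. Among the 11703 genes counted at P2.5, Kcne1 lay above 94.6% in dKO and 95.5% in dHET, and Kcnd2 above 0.205% in dKO and 6.30% in dHET. Kcnd2 reached 1 FPKM only in dHET, so its place in dKO is near the bottom by the count rule and not a result. With 1 library each, no spread is known for the order of neighbours such as Kcnh2 and Kcnip2 at P2.5.

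**Figure D4:**
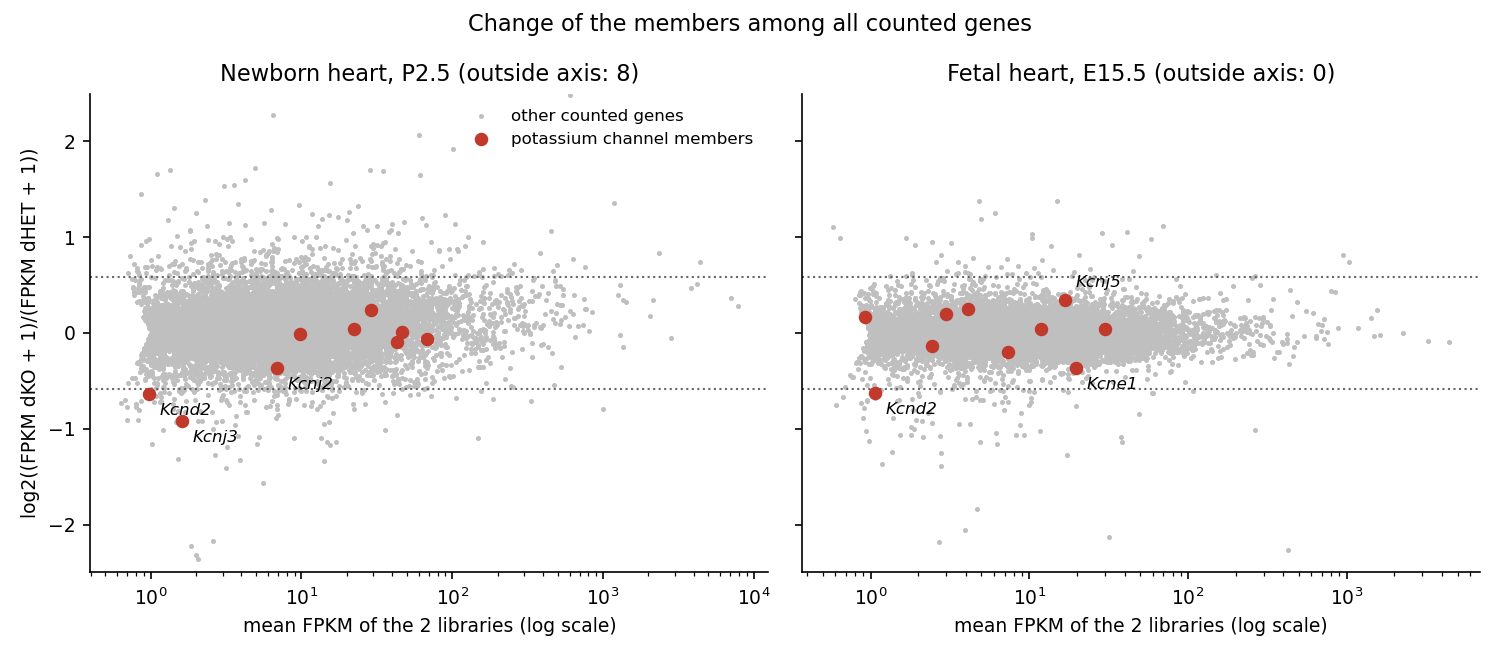
Change of each counted gene, log2((FPKM dKO + 1)/(FPKM dHET + 1)), against the mean FPKM of the dKO and dHET libraries on a log axis, at P2.5 (left) and E15.5 (right), with members in red and dotted lines at 1.5-fold. Kcnj3 (-0.92) and Kcnd2 (-0.64) at P2.5, and Kcnd2 (-0.63) at E15.5, lie below the lower line at the low end of the levels.

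A wider list of 57 other potassium channel genes was read the same way. At P2.5, 20 of them were counted, of which 1 passed 1.5-fold on the higher side and 0 on the lower. At E15.5, 23 were counted, with 1 higher and 1 lower. The shares over all counted genes were 3.4% higher and 1.33% lower at P2.5, and 0.487% higher and 0.726% lower at E15.5. The median change of the other channel genes was -0.019 in the newborn hearts and -0.031 in the fetal hearts. Of the 57, 13 hold a match to the miR-1 seed in the longest annotated 3' UTR, and 4 of these were counted at each stage. The 4 were Kcnmb1, Abcc9 (-0.48 at P2.5 and -0.16 at E15.5), Kcnn1 (-0.18 and -0.24) and Kcna5 (0.10 and 0.20). Whether a match bears on any of these changes was not tested. The higher one at both stages was Kcnmb1, the auxiliary subunit of the calcium-activated channel of smooth muscle, which carries the 8-base match shown above. It had 2.44 FPKM in dKO and 0.396 FPKM in dHET at P2.5, where it was counted through the dKO library alone. At E15.5 it had 7.42 FPKM in dKO and 2.24 FPKM in dHET. The changes of Kcnmb1 were 1.30 at P2.5 and 1.38 at E15.5, and the E15.5 change was the highest of all 11709 counted genes. The log2 ratios in the authors' deposited table were 2.62 (implied standard error 0.49) at P2.5 and 1.73 (0.22) at E15.5. Without the pseudocount the P2.5 change was thus the larger one. Smooth muscle markers moved beside Kcnmb1 only in part. At P2.5, 3 of 6 counted were higher, Cnn1 (1.69), Acta2 (1.36) and Myl9 (0.77), and 0 were lower. Tagln (-0.090) and Smtn (-0.017) changed little there, and Lmod1 was too low to be counted, at 0.244 FPKM in dKO and 0.427 FPKM in dHET. At E15.5, 1 of 7 was higher, Acta2 (0.81), and 2 were lower, Myh11 (-2.05) and Lmod1 (-1.24). The summed level was 2611 FPKM in dKO and 1211 FPKM in dHET at P2.5, and 2359 FPKM in dKO and 1587 FPKM in dHET at E15.5. Acta2 and Myl9 made up most of each sum, so the sums say little about the other markers. None of these markers was at 0, and their part in the Kcnmb1 value was not tested.

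The lower one at E15.5 was Kcnab1, a cytoplasmic beta subunit of voltage-gated channels, with 0.483 FPKM in dKO and 1.43 FPKM in dHET (-0.71). It was counted there through the dHET library alone, and the authors' deposited table gives it a q-value of 0.00736. At P2.5 it stood at 0.423 FPKM in dKO and 0.503 FPKM in dHET, too low to be counted. Kcnk3, a background channel, was higher in dKO at both stages without reaching 1.5-fold, at 56.2 FPKM in dKO and 40.0 FPKM in dHET at P2.5, and 35.5 FPKM in dKO and 24.1 FPKM in dHET at E15.5. Its changes were 0.48 and 0.54.

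Genes of the ATP-sensitive channel did not all lie on one side. Abcc9, its sulphonylurea receptor subunit, had 48.4 FPKM in dKO and 68.0 FPKM in dHET at P2.5, and 28.5 FPKM in dKO and 31.9 FPKM in dHET at E15.5. The pore gene Kcnj11 changed by -0.36 and -0.14, while Kcnj8, the pore found in smooth muscle, changed by 0.24 and 0.19; none of these 3 reached 1.5-fold. The voltage-gated pore Kcna5 (0.10 and 0.20) did not reach it either.

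**Figure D5:**
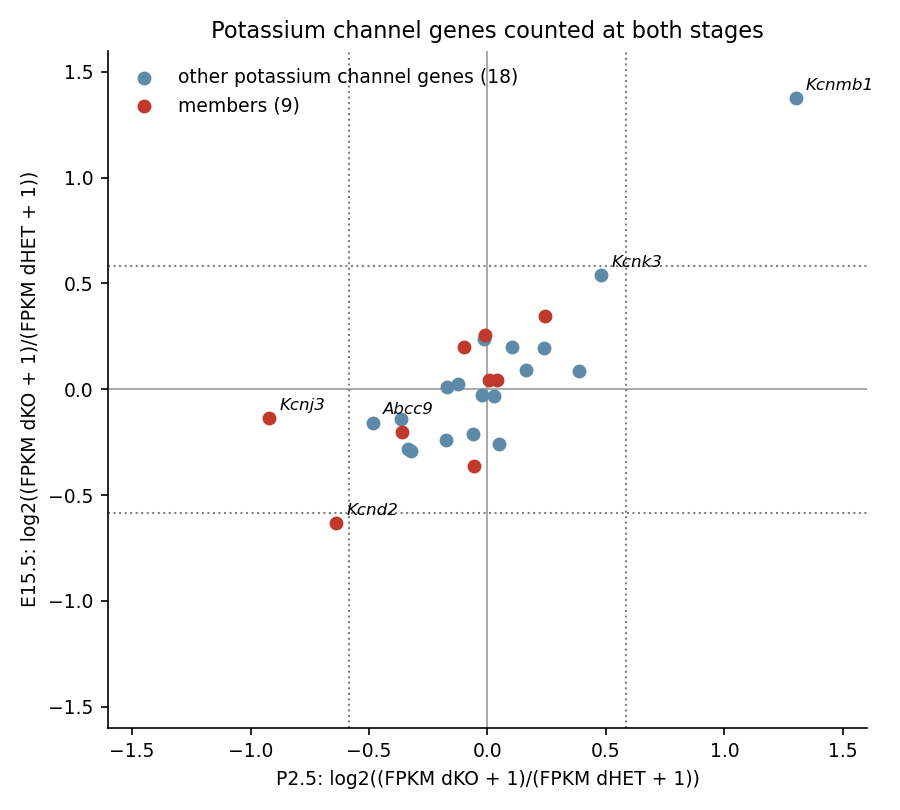
Change at P2.5 (horizontal) against change at E15.5 (vertical), both log2((FPKM dKO + 1)/(FPKM dHET + 1)), for the 9 members (red) and 18 other potassium channel genes (blue) counted at both stages, with dotted lines at 1.5-fold. Kcnd2 lies below 1.5-fold on both axes and Kcnmb1 above it on both.

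Described regulators of the members were read last. Of the 14 listed, all were counted at both stages. At P2.5, 1 passed 1.5-fold on the higher side and 0 on the lower, against 3.4% and 1.33% of all counted genes. At E15.5, 0 were higher and 1 lower, against 0.487% and 0.726%. Single calls in a list this short are not read as a result about the list. The higher one was Irx3, an Iroquois factor, with 22.7 FPKM in dKO and 13.3 FPKM in dHET at P2.5 (0.73), and 10.8 FPKM in dKO and 8.30 FPKM in dHET at E15.5 (0.34). Irx5, described as a repressor of Kcnd2 in mice, had 9.56 FPKM in dKO and 6.87 FPKM in dHET at P2.5 (0.42), and 7.21 FPKM in dKO and 6.75 FPKM in dHET at E15.5 (0.083). The authors' log2 ratios for Irx5 were 0.48 and 0.095, within 2 of their implied standard errors of 0.32 and 0.22. Its part in the Kcnd2 value was not tested. The lower one was Rgs4, which shortens G protein signals of the kind that opens the Kcnj3 and Kcnj5 channel. It had 1.41 FPKM in dKO and 3.26 FPKM in dHET at E15.5 (-0.83), and 3.43 FPKM in dKO and 3.71 FPKM in dHET at P2.5. The longest annotated 3' UTR of Rgs4 holds the word ACATTCCA, as do 8.36% of all those with at least 2000 bases. Among the other listed regulators, Chrm2, Gnb1, Dlg1 and Nedd4l hold CATTCCA, and none of these passed 1.5-fold. Whether a match bears on these changes was not tested.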

How the data were processed

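The authors' deposited FPKM values were used, 1 table per stage; the submitters' processing notes name TopHat, Bowtie, Cufflinks and the build mm9, without versions or settings. The depth of the libraries is not stated in the files. Per the file headers, the log2 fold change, test statistic, p-value and q-value are the authors' own comparison of 2 libraries, control over dKO at E15.5. At each stage, 86 rows displaced by commas in gene names were realigned. Rows flagged OK or NOTEST were used. With 1 library per group no test was made. Calls needed 1 FPKM or more in one library and a fold of 1.5 with a pseudocount of 1. The calculation was tested on simulated data, with changes by a fold of 2 in genes at 5 FPKM or more. That test does not cover low genes such as Kcnd2 and Kcnj3. The members, gene lists and call rule were chosen with earlier results of these data known. Named genes were all members, listed genes past 1.5-fold, Kcnj8, Kcnj11, Abcc9, Kcna5, Kcnk3, Irx3 and Irx5, and leading markers; other genes named were chosen after their values were seen. Some genes under this rule are not reported here. Alternatives changed the pseudocount, filter, scaling, flags and fold, or adjusted for GC content and length. Python 3.11.15, numpy 2.4.6 and pandas 2.3.3 were used.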

Additional observations from a re-analysis of the deposited data

Results flagged for a closer look

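Kcnj12 and Kcnip2 were the members whose change had opposite signs at the 2 stages. Kcnj12 changed by -0.012 at P2.5 and 0.26 at E15.5, and Kcnip2 by -0.098 at P2.5 and 0.20 at E15.5. There is 1 pair of libraries per stage, the difference between the stages was not tested, and for Kcnip2 each value was smaller than the standard error implied by the authors' table.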

How the results depend on the processing

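No paired analysis was possible because each group has 1 library, and for the same reason no replicate could be left out. The member calls rest on low genes that reached 1 FPKM in dHET only. At P2.5 the 2 lower members became 0 with a pseudocount of 5, with a filter at FPKM 5 and at a fold of 2, and 1 (Kcnj3) with GC content and length regressed out. The 1 lower member at E15.5 became 0 under the first 3 of these, and at a looser fold limit there were 2 lower and 1 higher. Kcnd2 and Kcnj3 kept their direction under every alternative that could be run for them.

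Among other potassium channel genes at P2.5, the 1 higher became 0 with a pseudocount of 5 or a filter at FPKM 5; rescaling to a sum of 1000000 gave 2 lower, and a looser fold limit gave 3 higher and 4 lower. At E15.5 the 1 lower became 2 with a pseudocount of 0.1 and with rescaling, and 0 with a pseudocount of 5, a filter at FPKM 5 or a fold of 2; a looser fold limit gave 2 higher and 2 lower.

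Over all genes at P2.5, the higher and lower counts were 651 and 306 with a pseudocount of 0.1, 141 and 42 with 5, 56 and 31 at a fold of 2, and 1900 and 791 at a looser fold limit. The lower count was 94 with the filter at FPKM 5, 235 after centring and 593 after rescaling. At E15.5 the higher and lower counts were 122 and 142, 18 and 22, 9 and 26, and 376 and 299 under the same 4 settings; the lower count was 47 with the filter, and the higher count 110 after rescaling. Stricter or looser limits change these counts by construction; the cause of the other shifts was not tested. The depth is not stated, so the read counts behind low genes such as Kcnd2 and Kcnj3 are unknown. Their implied standard errors cover the authors' model of 2 libraries, and the spread between animals is unknown.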
